A study of Mus musculus with 3 samples.

Results

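Glycosaminoglycan chain synthesis and sulfation were followed through 40 genes, counted in nuclei of the newborn mouse aortic valve. The genes were taken by name, and all 40 were found among the 36167 features of the deposited matrices. They comprise 5 genes of the linker that joins a chain to its protein, 6 of chondroitin sulfate polymerisation, 9 of chondroitin and dermatan sulfate modification, 3 of sulfate supply, 4 of heparan sulfate polymerisation, 11 of heparan sulfate modification and 2 that edit finished heparan sulfate. The study measured nuclear RNA from pooled aortic valve structures of mice at postnatal day 1, with each pool made from 22 to 24 aortic roots. There were 3 pools and 1 group, so no treatment or genotype was compared. All 3 pools carry the strain label B6.Cg-Scx<tm1.1(EGFP)Skom, which names an EGFP allele of the tendon transcription factor gene Scx. No pool without the allele was compared, and the labels give neither the sex of the pups nor a separate litter for each pool. Adjusted p-values therefore rest on how far the differences between classes varied over these pools, with the overall difference between pools taken out. That spread may in part be technical.

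A glycosaminoglycan chain is a long sugar polymer built on a core protein in the Golgi. A xylosyltransferase starts a short linker on the protein, and the next sugar added commits the chain to chondroitin and dermatan sulfate or to heparan sulfate. Sulfotransferases then place sulfate at set positions, using the donor PAPS, and an epimerase converts part of the glucuronic acid to iduronic acid. In valves these chains hang on proteoglycans such as versican and decorin in the leaflet matrix, and on the syndecans, glypicans and perlecan of cell surfaces and basement membranes, where heparan sulfate binds growth factors.

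Levels are in CPM, the unique molecular identifiers (UMIs) of a gene scaled to all UMIs of its class of nuclei in a pool. CPM were not divided by gene length, so they were compared between classes and not between genes. Of 21140 deposited nuclei, 12915 had at least 1000 UMIs, at most 5% mitochondrial UMIs and no doublet mark. Deposited UMIs per pool were 49918251, 25341316 and 21254247. Clustering without the 40 genes gave 30 clusters, of which 28 could be named "X-like" from marker genes. The classes used most were valve interstitial-like nuclei (the mesenchymal cells of the leaflet, 1467 nuclei), fibroblast-like (1131), smooth muscle-like (3318), endothelial-like (2668) and cardiomyocyte-like nuclei (2880). Mesothelial-like (373 nuclei), macrophage-like (247), pericyte-like (129), lymphatic endothelial-like (117) and erythroid-like nuclei (74) also had at least 20 nuclei in each pool and entered the tests. The 9 valve interstitial markers summed to 8586 to 9458 CPM in valve interstitial-like nuclei, 3679 to 4546 CPM in fibroblast-like nuclei and 941 to 984 CPM in smooth muscle-like nuclei. All 9 were detected in each of those classes. The 10 fibroblast markers summed to 4030 to 4316 CPM in fibroblast-like nuclei, a like level to that of the valve interstitial markers there. In valve interstitial-like nuclei they summed to 909 to 1233 CPM. Of the deposited barcodes, 196 occurred in 2 pools and 2 in all 3.

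The share of members that differed between classes was close to that of all genes. A difference in level between any of the 10 classes passed the edgeR quasi-likelihood test for 34 of the 38 members that could be tested, where 89.7% of all 14102 genes tested passed. The members that did not pass were B4galt7 and B3gat3, glycosyltransferases that complete the linker, Slc26a2, a sulfate transporter, and Ndst2, a heparan sulfate N-deacetylase and N-sulfotransferase. Their adjusted p-values were 0.727, 0.103, 0.129 and 0.111. Ndst4 and Hs3st3b1 were below the filter on low counts and were not tested, with mean levels of at most 4.8 CPM in every class. Among the 5 largest classes, the highest mean level fell in fibroblast-like nuclei for 14 members, in endothelial-like nuclei for 14, in valve interstitial-like nuclei for 7, in smooth muscle-like nuclei for 3 and in cardiomyocyte-like nuclei for 2. The pools of the highest and the second class did not overlap for 2 of the 14 in fibroblast-like, 6 of the 14 in endothelial-like, 5 of the 7 in valve interstitial-like, 3 of 3 in smooth muscle-like and 1 of 2 in cardiomyocyte-like nuclei. Neither count was made over all genes, so both describe the members only and do not set them apart from other genes.

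**Figure D1:**
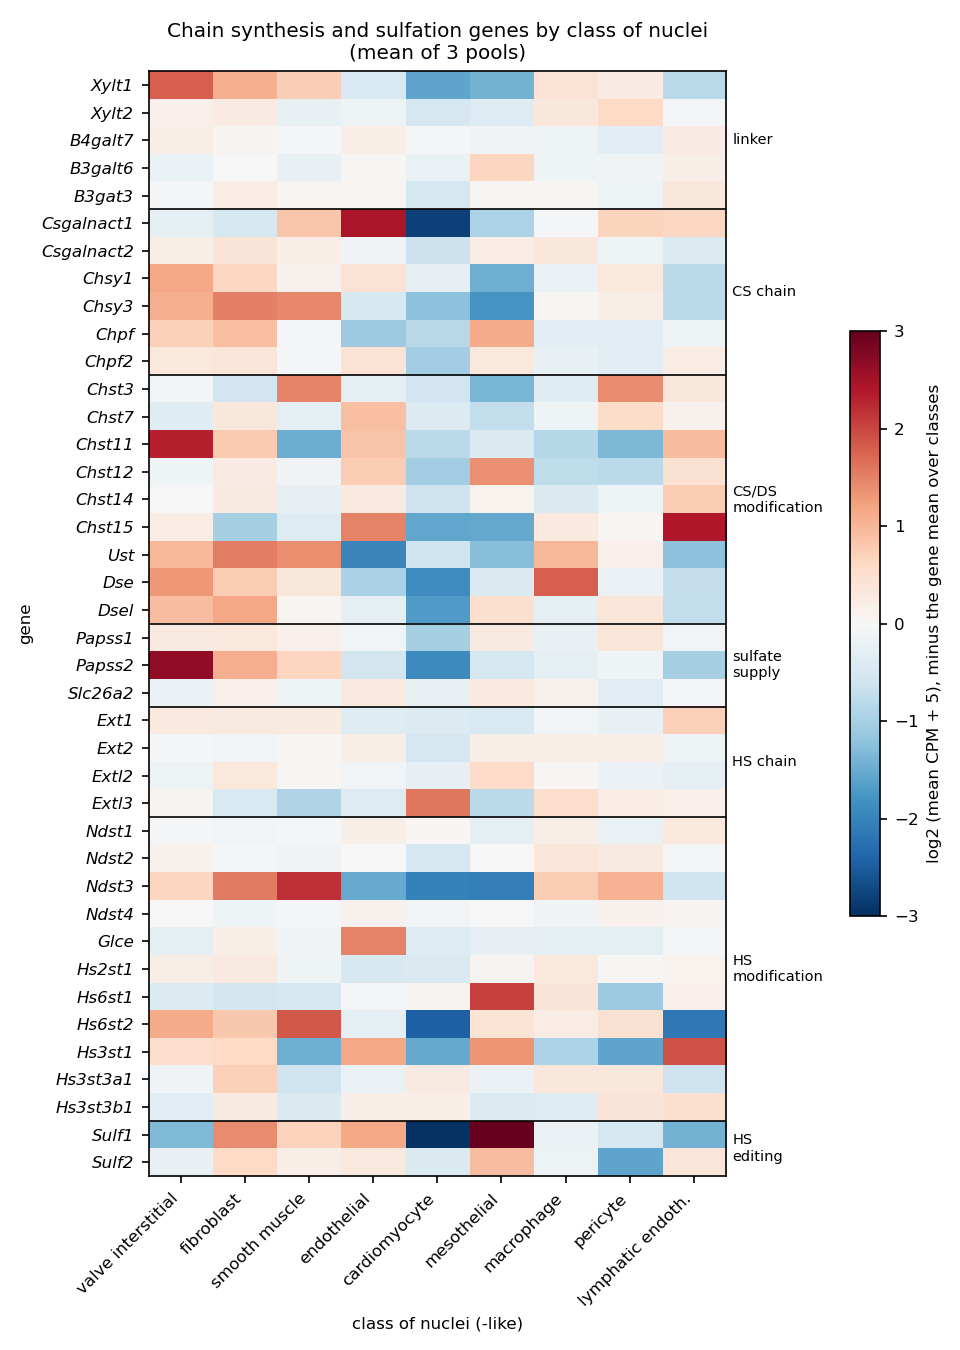
Mean level of each of the 40 genes (rows, by role) in 9 classes of nuclei (columns), as log2 of mean CPM plus 5 minus the gene's mean over the classes; the colour scale ends at 3 on either side and the erythroid-like class is left out. Xylt1, Chst11 and Papss2 are darkest red in valve interstitial-like nuclei, Csgalnact1 in endothelial-like, Ndst3 in smooth muscle-like and Sulf1 in mesothelial-like nuclei, while the 4 linker genes after Xylt1 are pale across the row.

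Valve interstitial-like nuclei had higher levels of Xylt1, Chst11 and Papss2 than fibroblast-like and smooth muscle-like nuclei. Their paralogs Xylt2 and Papss1 did not pass the test in either contrast, and Chst12, a second 4-O-sulfotransferase gene, was at 9.8 ± 3.6 CPM (SD, n = 3) there and at 36.7 ± 6.6 CPM in mesothelial-like nuclei. Against the mean of the other 9 classes, 15 of 38 tested members were higher and 1 was lower, where 20.7% of all genes were higher and 9.13% lower, 29.8% in either direction. The mean includes the erythroid-like class, in which 12 members had no UMI and the 7 erythroid markers took 611296 to 828190 CPM. A gene with no UMI in a class has no finite log2 level there, so a missing call against a mean that includes that class says nothing about the gene. Without the erythroid-like class, 14 of 39 tested members were higher and 2 lower, where 19.2% and 15.3% of all genes were called, and the median log2 difference of all genes moved from 0.20 to 0.02. Log2 differences against the mean of other classes are therefore given below from the fit without erythroid-like nuclei, which was chosen after the data had been seen. The 12 members were Xylt1, B4galt7, B3galt6, Chpf, Chst14, Chst15, Papss1, Extl2, Ndst2, Hs3st1, Hs3st3a1 and Hs3st3b1. The fit of all 10 classes had called Chst15 higher in valve interstitial-like nuclei, and that call was lost without erythroid-like nuclei (log2 difference 0.44, SE 0.20, edgeR adjusted p = 0.0852).

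Xylt1 encodes the xylosyltransferase that starts the linker. Its level in valve interstitial-like nuclei was 274.5, 248.0 and 246.0 CPM in pools 1, 2 and 3. Fibroblast-like nuclei had 147.8, 153.2 and 160.2 CPM, and smooth muscle-like nuclei 123.5, 103.0 and 139.3 CPM. The valve interstitial-like values were all above those of the other 2 classes. Xylt1 was higher than in fibroblast-like nuclei by a log2 difference of 0.81 (SE 0.14, edgeR adjusted p = 1.86e-05) and than in smooth muscle-like nuclei by 0.97 (SE 0.13, adjusted p = 1.51e-07). Endothelial-like nuclei had 50.3 ± 7.2 CPM (SD, n = 3) and cardiomyocyte-like nuclei 20.3 ± 4.4 CPM. The second xylosyltransferase gene, Xylt2, had 19.5 ± 2.7 CPM in valve interstitial-like and 21.1 ± 5.8 CPM in fibroblast-like nuclei, and no difference between those classes passed the test (log2 difference -0.10, SE 0.23, adjusted p = 0.834). B3galt6, which adds a galactose to the linker, was at 2.2 to 3.5 CPM in the 5 largest classes and at 8.1 ± 2.7 CPM in mesothelial-like nuclei.

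Chst11 encodes the main chondroitin 4-O-sulfotransferase. It had 214.2, 229.8 and 283.1 CPM in valve interstitial-like nuclei, against 76.5, 73.0 and 90.7 CPM in fibroblast-like and 10.5, 10.6 and 16.5 CPM in smooth muscle-like nuclei. None of these ranges overlapped. The log2 difference from fibroblast-like nuclei was 1.65 (SE 0.12, edgeR adjusted p = 1.86e-13), and that from smooth muscle-like nuclei was 4.19 (SE 0.14, adjusted p = 3.12e-23). With every nucleus thinned to 1000 UMIs, 17.7 ± 3.6% of valve interstitial-like nuclei held a Chst11 UMI, compared with 0.77 ± 0.54% of smooth muscle-like nuclei. Median depths before thinning were 3610 and 3413 UMIs, and the shares before thinning were 41.0% and 3.46%.

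Papss2 encodes one of 2 enzymes that make the sulfate donor PAPS. Its level was 219.2, 265.6 and 296.5 CPM in valve interstitial-like nuclei, with no overlap with the 98.0, 73.0 and 82.2 CPM of fibroblast-like nuclei. Smooth muscle-like nuclei had 74.9, 68.5 and 38.9 CPM, and cardiomyocyte-like nuclei 8.4, 7.6 and 2.5 CPM. The log2 difference was 1.66 from fibroblast-like nuclei (SE 0.19, edgeR adjusted p = 1.07e-08) and 1.93 from smooth muscle-like nuclei (SE 0.18, adjusted p = 2.76e-11). Papss1, the other PAPS synthase gene, was at 48.7 ± 4.2 CPM in valve interstitial-like, 50.5 ± 3.6 CPM in fibroblast-like and 44.8 ± 1.6 CPM in smooth muscle-like nuclei. Its log2 difference was 0.02 against fibroblast-like nuclei (SE 0.14) and 0.04 against smooth muscle-like nuclei (SE 0.12), neither of which passed the test. Slc26a2 was at 3.7 ± 1.8 CPM in valve interstitial-like nuclei and at 3.5 to 7.1 CPM in the other 4 of the 5 largest classes.

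The other members called in both contrasts of valve interstitial-like nuclei were Chsy1, Dse, Extl3, Ndst3, Sulf1 and Sulf2. Chsy1, a chondroitin synthase that extends the chain, was at 252.4, 258.0 and 255.6 CPM, with no pool of another class as high. The next level, in fibroblast-like nuclei, was 172.8 ± 8.4 CPM (log2 difference 0.62, SE 0.16, edgeR adjusted p = 0.00385). Dse, the dermatan sulfate epimerase, was at 186.4, 180.2 and 198.4 CPM, against 129.2 ± 10.8 CPM in fibroblast-like nuclei and 84.2 to 105.8 CPM in the smooth muscle-like pools. Its log2 difference from fibroblast-like nuclei was 0.61 (SE 0.15, adjusted p = 0.00266). Leaving out pool 1 or pool 2 took that adjusted p over 0.05, as did DESeq2.

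Sulf1 went the other way. It encodes an endosulfatase that removes 6-O-sulfate from heparan sulfate at the cell surface. Valve interstitial-like nuclei had 100.3, 91.0 and 133.0 CPM, fibroblast-like nuclei 740.0, 659.9 and 841.0 CPM, and smooth muscle-like nuclei 434.0, 411.3 and 515.9 CPM. The valve interstitial-like level was lower than the fibroblast-like (log2 difference -2.74, SE 0.26, edgeR adjusted p = 1.28e-10) and also lower than the smooth muscle-like level (log2 difference -2.20, SE 0.25, adjusted p = 4.58e-09). Sulf2, its paralog, was at 73.1 ± 19.7 CPM and differed from fibroblast-like nuclei by -0.81 (SE 0.17, adjusted p = 0.000331). The summed level of both genes was 181 ± 7 CPM in valve interstitial-like nuclei, against 880 ± 67 CPM for the fibroblast-like.

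In full, valve interstitial-like nuclei had 7 members higher and 3 lower than fibroblast-like nuclei, where 8.85% and 9.54% of all genes were called in those directions and 18.4% in either. With RLE size factors in place of TMM, 7 were higher and 5 lower, with nuclei from 500 UMIs 5 and 6, and with up to 10% mitochondrial UMIs 6 and 6. The median log2 difference was -0.02 over the 38 tested members and 0.02 over all genes. The 7 were Xylt1, Chsy1, Chst11, Chst15, Dse, Papss2 and Extl3, and the 3 were Ndst3, Sulf1 and Sulf2. Chst15, which adds a 6-sulfate to 4-sulfated chondroitin, was at 17.5, 32.0 and 19.3 CPM against 5.7, 8.6 and 6.8 CPM (log2 difference 1.75, SE 0.31, edgeR adjusted p = 4.45e-05). The call on Extl3 was lost when any 1 pool was left out, and that on Ndst3 was lost without pool 2. Against smooth muscle-like nuclei, 9 members were higher and 7 lower, where 14.6% and 15.6% of all genes were called, 30.2% in either direction. Beside the genes named above, Hs3st1 (log2 difference 3.54, SE 0.33), Dsel (0.86, SE 0.17) and Chpf (0.77, SE 0.25) were higher. Hs3st1 is a heparan sulfate 3-O-sulfotransferase, Dsel is the second dermatan sulfate epimerase gene, and Chpf is a chondroitin polymerising factor. Chst3, Csgalnact1, Hs6st2 and Ust were lower, together with Ndst3, Sulf1 and Sulf2. The calls on Chpf and Ust were lost without pool 1 and without pool 2.

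**Figure D2:**
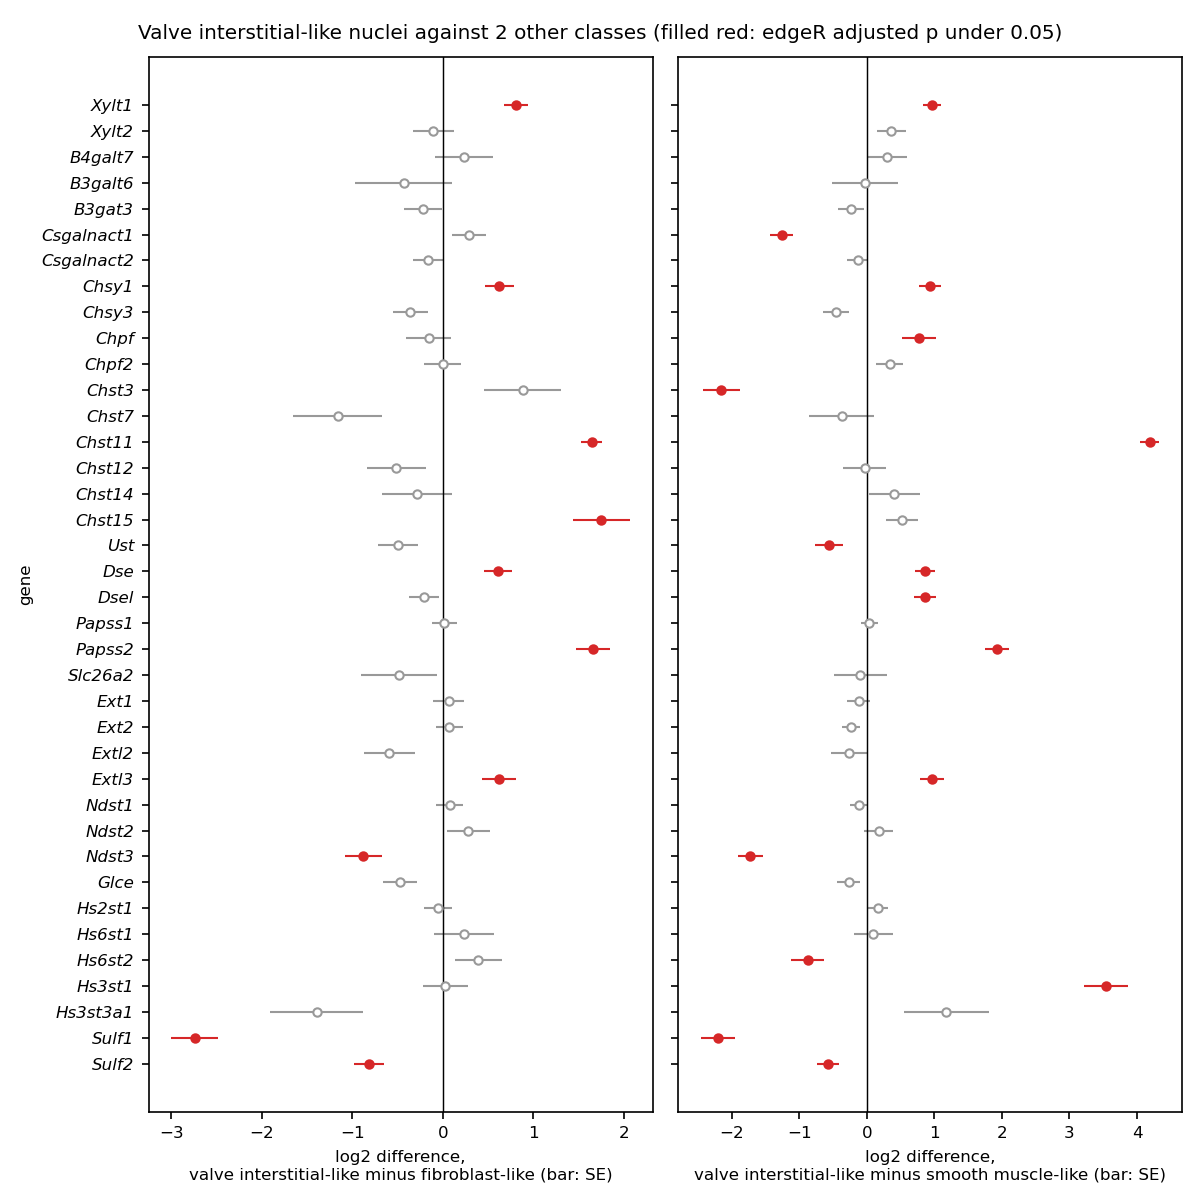
Log2 difference of each of the 38 tested genes (rows, by role) in valve interstitial-like nuclei against fibroblast-like nuclei (left) and smooth muscle-like nuclei (right); bars are standard errors and filled red points passed the edgeR test. Chst11 lies at 1.65 and 4.19, Papss2 at 1.66 and 1.93, and Sulf1 at -2.74 and -2.20.

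The sequence upstream of 3 of these genes shows how the members' start sites differ in CpG content. RefSeq start sites on GRCm38.p6, an older build than the GRCm39 of the deposited counts, were found for 31 of the 40 members, with 40 windows in all. In the 250 bases before the start, the median number of CpG was 17 in the members' windows and 6 in all 32841 windows. GC content was 64.0% and 52.4% (medians). The GC box letters GGGCGG, searched on both strands, stood in 24 of the 40 windows and in 32.7% of all. ACAAAG, searched on both strands, stood in 1 of the 40 (Chst3) and in 16.5% of all, and the CArG box stood in none of the 40 and in 1.47% of all. The windows printed are Chst11, both starts of Papss2 and the upstream start of Ndst3, a gene highest in smooth muscle-like nuclei. Chst11 and Papss2 are shown as genes called higher in both contrasts of valve interstitial-like nuclei, of which Chsy1 and Dse also have windows, with 30 and 25 CpG, that are not printed. Ndst3 is shown because its upstream window and the second Papss2 window hold the fewest CpG of the 40. Capitals mark CpG.
Chst11, chr10:82985247-82985496, plus strand, 26 CpG: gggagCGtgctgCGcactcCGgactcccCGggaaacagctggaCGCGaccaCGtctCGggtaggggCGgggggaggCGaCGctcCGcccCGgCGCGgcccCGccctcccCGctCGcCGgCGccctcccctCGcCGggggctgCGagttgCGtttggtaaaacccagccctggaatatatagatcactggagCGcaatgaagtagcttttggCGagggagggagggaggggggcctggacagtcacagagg
Papss2, first start, chr19:32595465-32595714, plus strand, 24 CpG: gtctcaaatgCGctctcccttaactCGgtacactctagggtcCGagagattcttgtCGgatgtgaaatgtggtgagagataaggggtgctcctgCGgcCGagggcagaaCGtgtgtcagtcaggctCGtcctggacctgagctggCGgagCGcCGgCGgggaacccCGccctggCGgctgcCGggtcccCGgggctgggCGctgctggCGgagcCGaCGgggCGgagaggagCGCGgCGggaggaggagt
Papss2, second start, chr19:32619755-32620004, plus strand, 1 CpG: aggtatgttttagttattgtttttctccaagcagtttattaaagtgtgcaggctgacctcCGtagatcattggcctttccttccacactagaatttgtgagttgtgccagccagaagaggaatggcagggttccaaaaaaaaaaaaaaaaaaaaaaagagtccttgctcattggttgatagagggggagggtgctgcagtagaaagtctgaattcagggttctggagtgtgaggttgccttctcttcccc
Ndst3, chr3:123672478-123672727, minus strand, 1 CpG: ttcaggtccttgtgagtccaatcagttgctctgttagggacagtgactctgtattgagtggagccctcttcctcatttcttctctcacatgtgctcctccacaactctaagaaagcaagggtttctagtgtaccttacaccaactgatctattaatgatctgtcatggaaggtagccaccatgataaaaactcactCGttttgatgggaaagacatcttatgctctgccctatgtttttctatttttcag
The first Papss2 window and that of Chst11 are dense in CpG, with 67.6% and 70.0% GC. The second Papss2 window and that of Ndst3 each hold 1 CpG, with 43.2% and 42.4% GC. At most 3 CpG stood in 3 of the 40 member windows and in 37.8% of all windows. The counts do not say which start of Papss2 the UMIs came from.

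In smooth muscle-like nuclei, Ndst3, Hs6st2 and Chst3 were higher than the mean of other classes, while other genes of the same activities were not. In the fit without erythroid-like nuclei, Hs6st1 was lower (log2 difference -0.72, SE 0.24, edgeR adjusted p = 0.0167). Chst7 (-0.20, SE 0.36), Ndst1 (0.03, SE 0.10) and Ndst2 (-0.07, SE 0.16) did not pass the test. Against the mean of the other classes, 15 members were higher and 2 lower, where 26.4% and 9.3% of all genes were called, 35.7% in either direction. Without the erythroid-like class, 14 of 39 were higher and 6 lower, where 24.1% and 18.9% of all genes were called. Ndst3 encodes an N-deacetylase and N-sulfotransferase, the step that opens heparan sulfate to further modification. It had 221.3, 210.7 and 242.7 CPM in smooth muscle-like nuclei. Fibroblast-like nuclei had 126.8, 156.5 and 140.7 CPM, and valve interstitial-like nuclei 85.7, 56.5 and 77.3 CPM. Those 3 ranges did not overlap, and endothelial-like nuclei had only 14.8, 6.5 and 16.7 CPM. The smooth muscle-like level was above the mean of other classes by a log2 difference of 2.88 (SE 0.14, edgeR adjusted p = 1e-17). After thinning, 16.5 ± 1.5% of smooth muscle-like and 0.47 ± 0.17% of endothelial-like nuclei held a UMI, with median depths of 3413 and 4439 UMIs. The shares before thinning were 35.2% and 3.35%.

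Hs6st2, a heparan sulfate 6-O-sulfotransferase gene, was at 493.2, 464.6 and 445.2 CPM in smooth muscle-like nuclei and at 278.3 ± 25.4 CPM in valve interstitial-like nuclei, the next of the 5 largest classes. It was higher than the mean of other classes by 2.28 (SE 0.16, edgeR adjusted p = 3.42e-13). Chst3, the chondroitin 6-O-sulfotransferase gene, was at 39.7, 37.7 and 36.8 CPM. Pericyte-like nuclei had a like level with a wide spread, 50.9, 21.6 and 36.3 CPM, and the other 4 of the 5 largest classes had 5.2 to 9.4 CPM. Chst3 was higher in smooth muscle-like nuclei by 2.47 (SE 0.19, adjusted p = 2.14e-12), while Chst11, for 4-sulfation, was lower (log2 difference -1.90, SE 0.18, adjusted p = 1.86e-10). In valve interstitial-like nuclei the same pair stood the other way round, with Chst3 lower than in smooth muscle-like nuclei (log2 difference -2.15, SE 0.28, adjusted p = 4.58e-08).

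Among the smooth muscle-like clusters, Hs6st2 was at 733 ± 64 CPM in the cluster led by D030068K23Rik, Neil3 and Anln and at 260 ± 22 CPM in that led by Clca3a2, Pi15 and Col24a1. Neil3 and Anln are genes of dividing cells. Ndst3 was lowest in the cluster led by Sorcs3, Cntn6 and Cntn4, at 109 ± 25 CPM, where Papss2 had its highest smooth muscle-like level, 185.6, 106.1 and 71.7 CPM.

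In fibroblast-like nuclei, Chsy3, Dsel and Ust were higher than the mean of other classes, with Ust at its highest mean level. Against the mean of the other classes, 18 members were higher and 1 lower, where 19.1% and 7.99% of all genes were called, 27.1% in either direction. Without erythroid-like nuclei, 17 of 39 were higher and 4 lower, where 18.2% and 12.3% of all genes were called. Ust, the uronyl 2-O-sulfotransferase of dermatan and chondroitin sulfate, was at 310.9, 251.4 and 378.9 CPM, overlapping the 326.7, 256.2 and 271.6 CPM of smooth muscle-like nuclei. Endothelial-like nuclei had 20.2, 13.5 and 34.1 CPM. Chsy3, a chondroitin synthase, was at 258.7 to 304.3 CPM in the fibroblast-like pools and at 250.5 to 280.5 CPM in the smooth muscle-like pools, which also overlap. It was higher in fibroblast-like nuclei than the mean of other classes by 1.69 (SE 0.14, edgeR adjusted p = 2.93e-11), and Ust was higher by 1.76 (SE 0.16, adjusted p = 1.49e-10). Dsel was at 63.0, 66.3 and 64.4 CPM in fibroblast-like nuclei, just above the 46.4, 59.0 and 57.2 CPM of valve interstitial-like nuclei, a difference that did not pass the test (log2 difference of valve interstitial-like minus fibroblast-like -0.21, SE 0.17, adjusted p = 0.476). Chpf varied between pools. It had 42.9, 58.4 and 17.8 CPM in fibroblast-like nuclei, valve interstitial-like nuclei had 34.6, 51.5 and 17.1 CPM, and pool 3 was the lowest in each of the 5 largest classes.

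**Figure D3:**
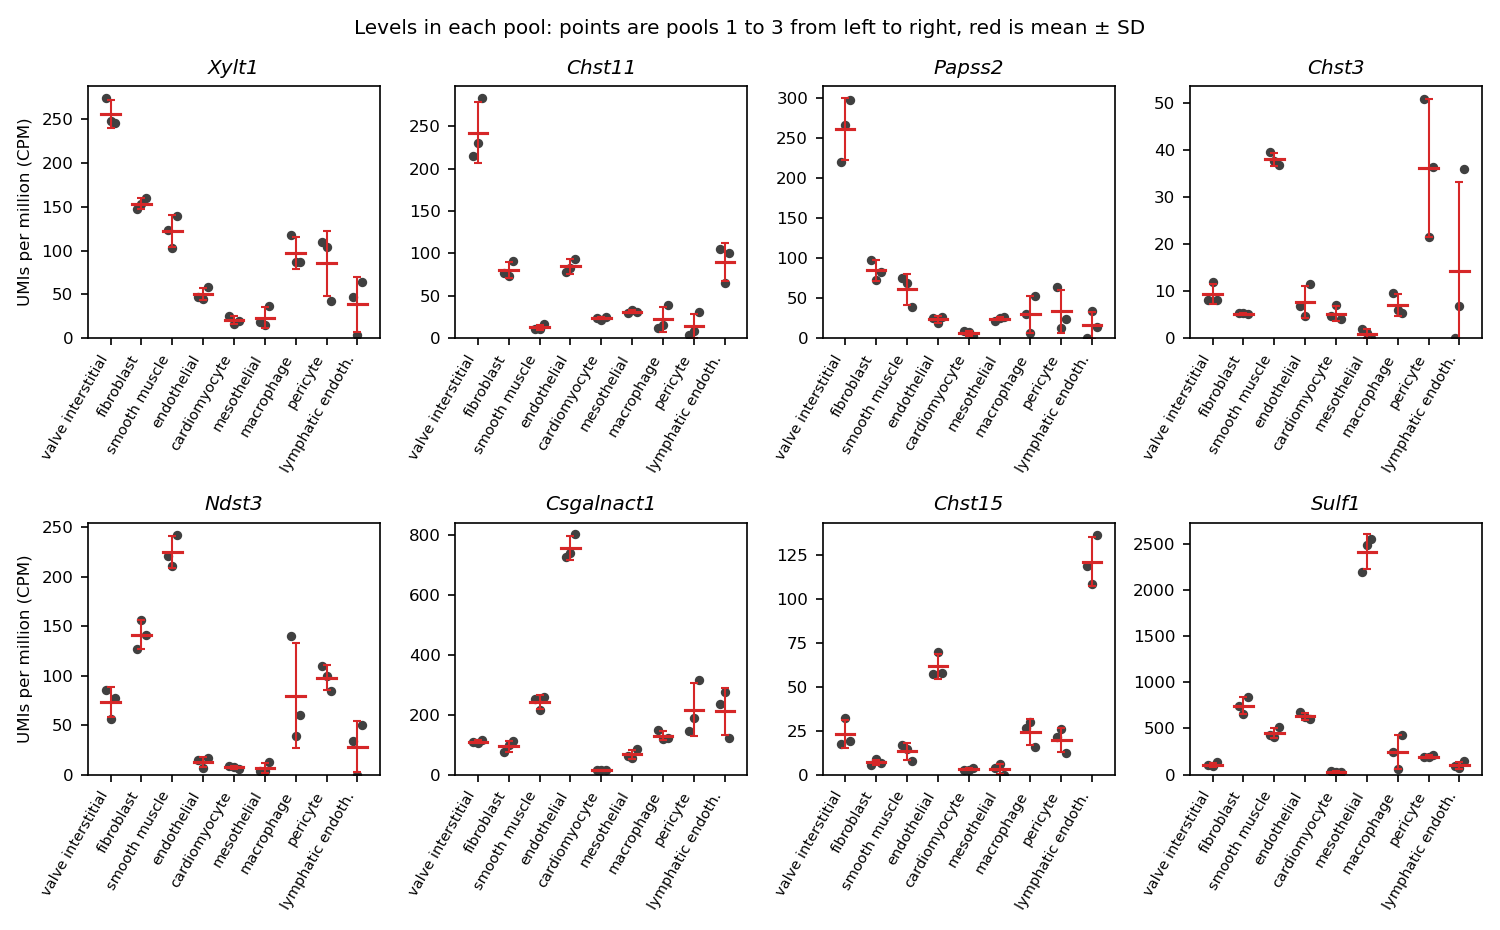
CPM of 8 genes in each pool (points, pools 1 to 3 from left to right) for 9 classes of nuclei, with the mean and SD in red; each axis starts at 0. The 3 pools of the highest class stand together for most genes, as for Csgalnact1 in endothelial-like nuclei (725.9 to 802.6 CPM), while pericyte-like, macrophage-like and lymphatic endothelial-like points scatter widely for several genes.

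In endothelial-like nuclei, Csgalnact1, Glce and Chst15 were higher than the mean of other classes, each with its highest level in a different cluster. Against the mean of the other classes, 13 members were higher and 5 lower, where 23.5% and 8.48% of all genes were called, 31.9% in either direction. Without erythroid-like nuclei, 11 of 39 were higher and 11 lower, where 22.4% and 14.8% of all genes were called. Xylt1 was then lower (log2 difference -0.54, SE 0.15, edgeR adjusted p = 0.00535). Csgalnact1 encodes the N-acetylgalactosaminyltransferase that starts chondroitin on the linker. It had 725.9, 739.8 and 802.6 CPM in endothelial-like nuclei and 253.1, 214.4 and 258.8 CPM in smooth muscle-like nuclei. Valve interstitial-like nuclei had 108.2, 106.7 and 115.2 CPM, and cardiomyocyte-like nuclei 16.7, 13.8 and 14.7 CPM. The endothelial-like level exceeded the mean of other classes by a log2 difference of 2.79 (SE 0.10, adjusted p = 3.44e-21). After thinning, 43.0 ± 1.9% of endothelial-like nuclei and 1.9 ± 0.9% of cardiomyocyte-like nuclei held a UMI, at median depths of 4439 and 4921 UMIs. The shares before thinning were 69.5% and 5.35%. Csgalnact2, the paralog, was at 19.5 to 45.6 CPM in the 5 largest classes, with 30.8 ± 2.9 CPM in endothelial-like nuclei.

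Glce encodes the epimerase that makes iduronic acid in heparan sulfate. Endothelial-like nuclei had 109.1, 89.0 and 88.1 CPM, and the class means elsewhere, erythroid-like nuclei left out, were 22.8 to 35.4 CPM. No pool of those other 8 classes reached the lowest endothelial-like value. Glce was higher by 1.80 (SE 0.09, edgeR adjusted p = 6.94e-17). Chst15 had 57.3, 69.7 and 57.8 CPM, and lymphatic endothelial-like nuclei had more, 118.4, 108.6 and 136.6 CPM. Hs3st1 was at 40.2, 42.8 and 31.5 CPM in endothelial-like nuclei and at 71.1, 64.5 and 64.7 CPM in lymphatic endothelial-like nuclei. Chst12, a second 4-O-sulfotransferase gene, and Chst7, a 6-O-sulfotransferase gene, were higher in endothelial-like nuclei than in the mean of other classes by 1.28 (SE 0.19) and 1.75 (SE 0.26). Ust (-2.53, SE 0.23), Ndst3 (-1.92, SE 0.24), Chpf (-1.61, SE 0.26) and Dse (-1.27, SE 0.15) were lower.

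Endothelial-like nuclei were not uniform. Clusters are named here by their leading genes, and the 40 genes took no part in forming them. Csgalnact1 was at 1519.4, 1449.8 and 1580.8 CPM in the Grid1 and Col23a1 cluster (954 nuclei) and at 66.9, 153.9 and 61.3 CPM in the Mannr and Ptchd1 cluster (239 nuclei). Sulf1 had the opposite order, at 243.4, 185.8 and 213.6 CPM in the first and 1837.0, 1569.1 and 2151.0 CPM in the second. The Dlgap2 and Cntnap5a cluster (255 nuclei) had the lowest Sulf1, 57.5, 51.7 and 58.1 CPM, and the highest Chst15, 204.9, 307.8 and 174.2 CPM. Glce was at 180.4, 151.0 and 191.8 CPM in the Cytl1 and Gkn3 cluster (536 nuclei) and at 19.2, 35.2 and 27.1 CPM in the Dlgap2 and Cntnap5a cluster. Chst7 was at 46.9, 58.4 and 60.3 CPM in the Pcdh17 and Aplnr cluster (232 nuclei), and its mean was at most 12.2 CPM in each of the other 5 clusters shown. A seventh cluster of 58 nuclei was not compared.

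**Figure D4:**
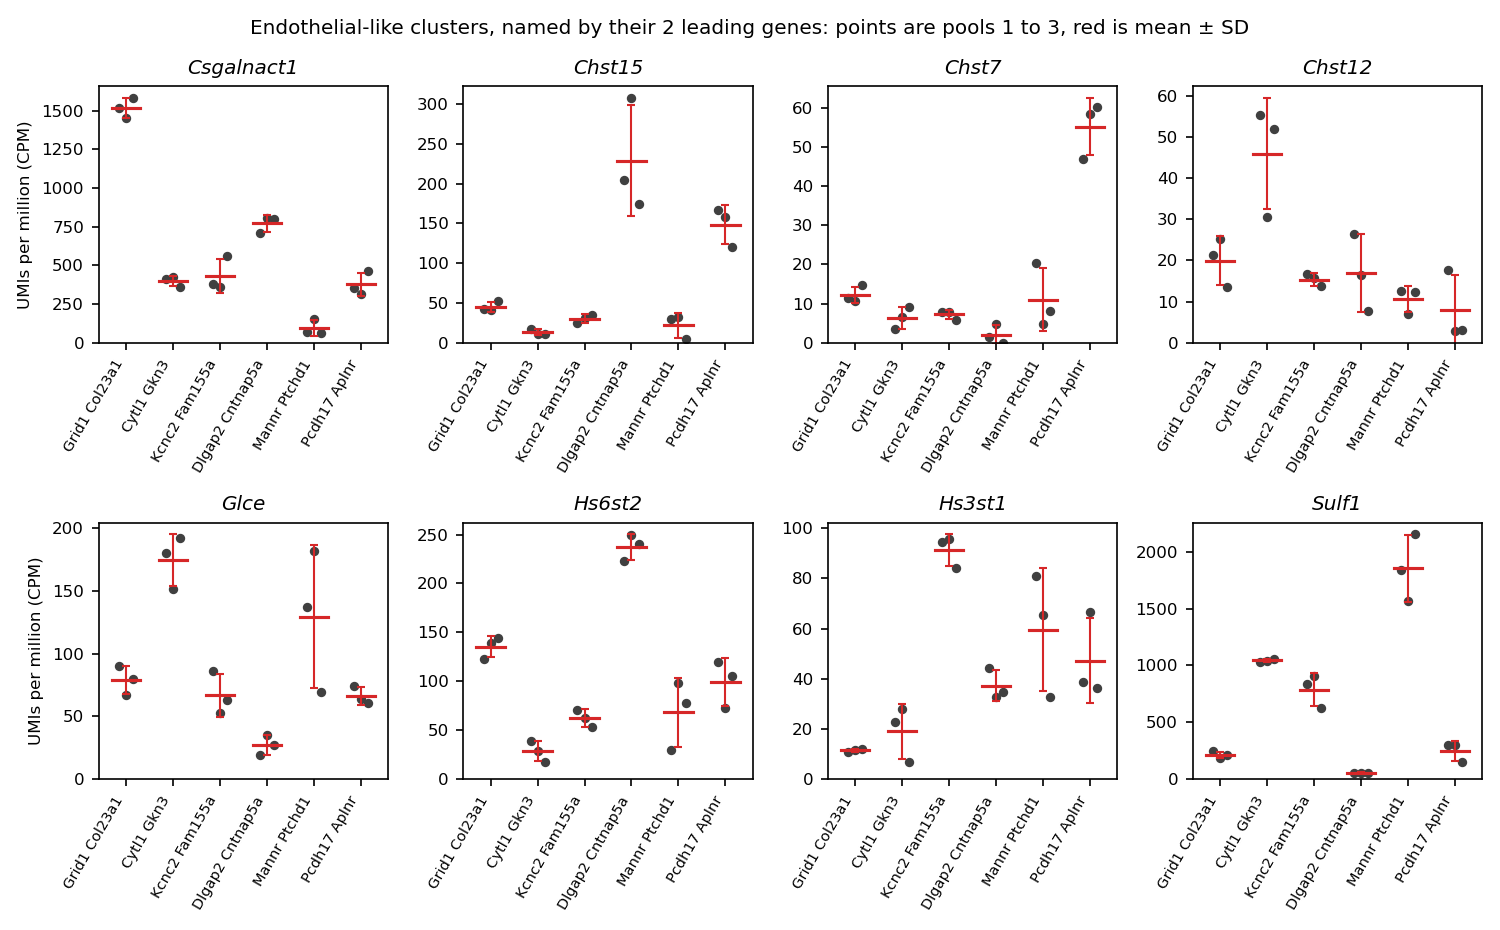
CPM of 8 genes in each pool (points, pools 1 to 3 from left to right) for 6 endothelial-like clusters, with mean and SD in red; each axis starts at 0. The Grid1 cluster is highest for Csgalnact1, the Dlgap2 cluster for Chst15 and Hs6st2, the Pcdh17 cluster for Chst7, the Cytl1 cluster for Chst12 and Glce, the Kcnc2 cluster for Hs3st1 and the Mannr cluster for Sulf1.

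A test was made of the endothelial-like cluster with the highest Wnt9b, which Kcnc2 and Fam155a lead (394 nuclei). Wnt9b is a Wnt ligand known from the endothelium of developing valves. Against the other endothelial-like nuclei, 6 members were higher and 4 lower of 39 tested, where 13% and 10.8% of 12242 genes were called, 23.8% in either direction. The members' share was close to that of all genes, and the 10 calls became 6 with DESeq2 and 5 without pool 2. Hs3st1 was at 94.5, 95.6 and 84.2 CPM in the cluster, and its log2 difference was 1.77 (SE 0.16, edgeR adjusted p = 1.02e-07). Sulf2 was higher by 0.83 (SE 0.12, adjusted p = 2.98e-05). Csgalnact1 (-0.95, SE 0.11), Chst15 (-1.20, SE 0.18) and Hs6st2 (-0.76, SE 0.16) were lower, and Glce was lower (log2 difference -0.58, SE 0.15). Hs3st3a1 and Hs3st3b1, a pair of closely similar 3-O-sulfotransferase genes, were also called higher, from means of only 7.1 and 10.9 CPM. Hs3st3b1 was below the filter on low counts in the test of classes, with means of at most 3.6 CPM in the 5 largest classes. Genes this low may pass the filter here only through the cluster in which they are higher, so these 2 calls carry little weight. Reads of this pair may be shared between them. Ndst1, an N-sulfotransferase gene, and Sulf1 completed the 6, by 0.52 (SE 0.15) and 0.41 (SE 0.11). The calls on Ndst1, Sulf1 and Glce were lost without pool 2, where Hs3st3a1 and Hs3st3b1 fell below the filter on low counts and were not tested. The call on Sulf1 was also lost without pool 1, and that on Hs3st3a1 without pool 3.

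The pair of valve interstitial-like clusters differed from each other in 8 members. One, led by Ctnna2 and Abi3bp, held 976 nuclei and the other, led by Rmst, Rnf43 and Adamts19, held 491. Of 32 members tested between them, 4 were higher in the first and 4 lower, where 6.85% and 7.16% of 10483 genes were called, 14% in either direction. Chst11 was at 126.3, 201.8 and 188.8 CPM in the Ctnna2 cluster and at 341.0, 282.6 and 426.1 CPM in the Rmst cluster, with no overlap (log2 difference -1.09, SE 0.14, edgeR adjusted p = 1.87e-05). Chsy3 was at 282.9, 246.9 and 275.1 CPM in the Ctnna2 cluster against 147.4, 76.1 and 121.5 CPM (log2 difference 1.17, SE 0.13, adjusted p = 4.94e-06). Csgalnact1 (-0.79, SE 0.15) and Ust (-0.62, SE 0.11) were also lower in the Ctnna2 cluster, and Hs6st2 (0.66, SE 0.11) was higher. Papss2 (-0.50, SE 0.12), Chst15 (1.06, SE 0.32) and Ndst3 (0.65, SE 0.16) made up the rest of the calls. Leaving out pool 3 ended the call on Papss2, leaving out pool 1 that on Ndst3, and leaving out pool 1 or pool 2 that on Chst15. With nuclei of at least 500 UMIs, 3 of the 8 differences changed sign, to -0.62 for Chst15, 0.06 for Papss2 and -0.10 for Hs6st2. Those nuclei were clustered anew, and the 2 largest valve interstitial-like clusters were taken, the one with more Ctnna2 as the first. They were not matched to the pair named here, so the clusters compared may differ. Without the pool as a block, 4 members were called and not 8.

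**Figure D5:**
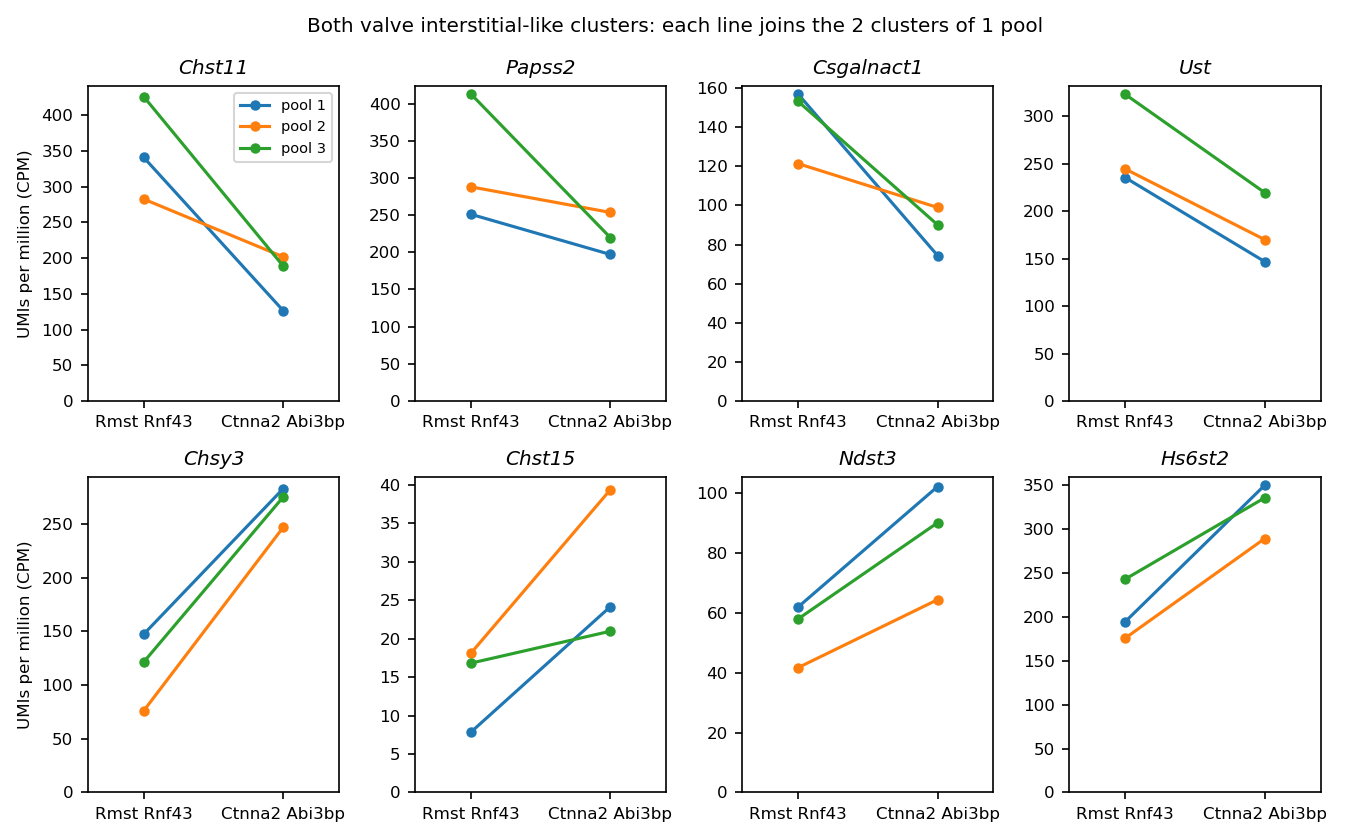
CPM of the 8 genes called between both valve interstitial-like clusters, with 1 line per pool joining the Rmst cluster to the Ctnna2 cluster; each axis starts at 0. All 3 lines fall for Chst11, Papss2, Csgalnact1 and Ust and rise for Chsy3, Chst15, Ndst3 and Hs6st2.

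Mesothelial-like nuclei, from the surface lining of the heart, had the highest Sulf1 of the classes. The level was 2194.1, 2486.5 and 2548.3 CPM, and no pool of another class passed 841.0 CPM, although the Mannr and Ptchd1 cluster within the endothelial-like nuclei reached 1569.1 to 2151.0 CPM. Sulf1 was higher than the mean of other classes by a log2 difference of 3.70 (SE 0.13, edgeR adjusted p = 1.58e-21). The median mitochondrial share of mesothelial-like nuclei was 2.94%, against 0.468% to 1.31% in the 5 largest classes, and its part in the results of this class was not tested. After thinning, 81.4 ± 4.2% of these nuclei held a Sulf1 UMI and 4.2 ± 1.5% of cardiomyocyte-like nuclei did, at median depths of 9893 and 4921 UMIs. The shares before thinning were 98.9% and 10.3%. Of 38 members, 15 were higher and 8 lower in mesothelial-like nuclei, where 32.8% and 14.6% of all genes were called, 47.3% in either direction. Without erythroid-like nuclei, 14 of 39 were higher and 11 lower, where 30.4% and 25.9% of all genes were called. Hs6st1, a 6-O-sulfotransferase gene, was at 75.3, 77.3 and 91.9 CPM against class means of 4.9 to 22.2 CPM elsewhere, erythroid-like nuclei left out (log2 difference 2.83, SE 0.17, adjusted p = 2.72e-15). Chst12 (2.28, SE 0.22), Hs3st1 (2.37, SE 0.22), B3galt6 (1.67, SE 0.34) and Extl2 (1.10, SE 0.23), a gene related to the heparan sulfate polymerases, were higher too. Ndst3 (-3.13, SE 0.39), Chsy3 (-2.27, SE 0.25) and Chsy1 (-1.54, SE 0.16) were lower. Leaving out pool 1 reduced the called members from 23 to 15.

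Cardiomyocyte-like nuclei had the lowest summed level of the members among the 5 largest classes, 1695 ± 45 CPM, while the other 4 had mean sums of 3579 to 4505 CPM. Against the mean of the other classes, 4 members were higher and 11 lower, where 31.3% and 15.2% of all genes were called, 46.4% in either direction. Without erythroid-like nuclei, 5 of 39 were higher and 22 lower, where 31.8% and 28.2% of all genes were called. Extl3, which starts heparan sulfate chains, had the largest difference of those 5, at 172.5, 158.8 and 198.9 CPM. The other classes had means of 27.7 to 82.6 CPM, erythroid-like nuclei left out, and no pool of them exceeded 119.9 CPM. Its log2 difference was 2.21 (SE 0.09, edgeR adjusted p = 8.52e-21). Sulf1 (-3.13, SE 0.22), Csgalnact1 (-3.16, SE 0.17), Hs6st2 (-2.65, SE 0.27), Papss2 (-2.40, SE 0.31), Dsel (-2.34, SE 0.19) and Dse (-2.07, SE 0.17) were lower. Within the class, the cluster led by Cox6a2, Myl3 and Myh7 (543 nuclei, median 1971 UMIs) had Csgalnact1 at 63.2 ± 16.2, Sulf1 at 159.6 ± 38.5 and Hs6st2 at 91.2 ± 35.8 CPM. The largest cluster (1508 nuclei, median 5556 UMIs) had 5.1 ± 2.1, 7.3 ± 0.7 and 3.7 ± 0.9 CPM of the same genes. The part of depth in these levels was not tested. Ndst1, at 65.9 ± 3.1 CPM, was higher by 0.40 (SE 0.10), although its mean lay between 50.7 and 79.8 CPM in every class but the erythroid-like. Hs3st3a1 was at 77.0, 55.6 and 65.6 CPM in the cardiomyocyte-like cluster led by Ryr3 and Cpne5 (200 nuclei), and its mean was at most 2.7 CPM in the other 3 clusters compared.

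Macrophage-like nuclei were marked by Dse, at 280.9, 332.8 and 189.0 CPM, a range that reaches into the 180.2 to 198.4 CPM of valve interstitial-like nuclei. Dse was higher than the mean of other classes by 1.95 (SE 0.16, edgeR adjusted p = 7.33e-12). Of 38 members, 4 were higher and 1 lower, where 17.2% and 5.4% of all genes were called, 22.6% in either direction. Without erythroid-like nuclei, 3 of 39 were higher and 2 lower, where 15.2% and 10.5% were called. Leaving out pool 1 took the 5 calls to 2. Ust (1.09, SE 0.20) and Ndst3 (1.20, SE 0.26) were among those higher. Markers of cardiomyocytes, all 9 detected, summed to 1366 to 4818 CPM in macrophage-like nuclei and to 543 to 1161 CPM in valve interstitial-like nuclei. The 8 smooth muscle markers, all detected, summed to 825 to 1508 CPM and to 436 to 681 CPM. Ndst3 was at 139.8, 39.0 and 60.4 CPM, and the part of other cell types in these values was not tested.

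In pericyte-like nuclei, 4 members were higher and 2 lower, where 8.4% and 1.48% of all genes were called, 9.89% in either direction. Without erythroid-like nuclei, 3 of 39 were higher and 4 lower, where 7.39% and 3.47% were called. Chst3 was higher (2.20, SE 0.47), and Sulf2 was lower (-2.09, SE 0.32), at 17.0, 34.6 and 24.2 CPM. At clustering resolution 2 the Sulf2 difference turned to 0.71 and 12 members were called. Leaving out pool 2 took the 6 calls to 3, as did keeping doublets, and the call on Chst3 was lost without pool 1. The 8 smooth muscle markers, all detected, summed to 3586 to 4148 CPM in pericyte-like nuclei, as high as the 3072 to 3830 CPM of smooth muscle-like nuclei, and their part in the Chst3 level was not tested.

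The heparan sulfate polymerase genes were detected in all of these classes. Ext1, which with Ext2 forms the polymerase, was at 1186.0 ± 146.8 CPM in valve interstitial-like, 1183.6 ± 161.7 CPM in fibroblast-like and 1182.2 ± 104.4 CPM in smooth muscle-like nuclei. Endothelial-like nuclei had 761.9 ± 75.8 CPM, cardiomyocyte-like nuclei 732.3 ± 94.4 CPM, and lymphatic endothelial-like nuclei 1289.1, 1639.3 and 1854.5 CPM. Ext2 had class means of 51.4 to 88.0 CPM, erythroid-like nuclei left out. Hs2st1, the uronyl 2-O-sulfotransferase of heparan sulfate, had means of 77.1 to 136.9 CPM over the same classes. Among members of low level, Chst14, the dermatan 4-O-sulfotransferase gene, had means of 2.7 to 9.5 CPM in 8 classes and 13.6 to 16.9 CPM in the lymphatic endothelial-like pools. Chpf2, a second polymerising factor, had class means of 8.5 to 32.8 CPM.

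Genes that carry, feed or break down the chains were counted from 4 companion lists, which were also chosen with earlier results of these data known. In valve interstitial-like nuclei, 3 of 10 tested chondroitin and dermatan sulfate core proteins were higher than the mean of other classes and 2 lower in the fit without erythroid-like nuclei, where 19.2% and 15.3% of all genes were called. Vcan, the large aggregating proteoglycan versican of the leaflet, had 2302 to 2441 CPM, against 792 to 979 CPM in fibroblast-like nuclei (log2 difference between these classes 1.52, SE 0.23, edgeR adjusted p = 2.51e-06). Dcn, the small proteoglycan decorin, was higher than the mean of other classes by 2.47 (SE 0.14). Of 14 heparan sulfate core proteins, 7 were higher and 0 lower, among them the syndecan gene Sdc2 (1.21, SE 0.12), the glypican gene Gpc1 (1.56, SE 0.30) and the endostatin precursor Col18a1 (0.92, SE 0.14). In that test 19.2% of all genes were higher. Ugdh, which makes the UDP-glucuronic acid that all these chains use, was higher by 1.61 (SE 0.11). It had 142.8, 146.3 and 148.6 CPM in valve interstitial-like nuclei.

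Between the pair of valve interstitial-like clusters, core proteins differed as well. Dcn (-1.54, SE 0.08) and Vcan (-1.07, SE 0.08) were lower in the Ctnna2 cluster, where Chst11 was lower, and the glypican genes Gpc6 (2.27, SE 0.10) and Gpc3 (1.95, SE 0.11) were higher. Of 6 chondroitin and dermatan sulfate core proteins tested there, 3 were higher and 3 lower, and of 13 heparan sulfate core proteins, 3 were higher and 3 lower, where 6.85% and 7.16% of all genes were called.

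In smooth muscle-like nuclei, other chondroitin sulfate core proteins were higher. Acan (aggrecan) was higher than the mean of other classes by 3.18 (SE 0.14), Ptprz1 by 4.41 (SE 0.20) and Cspg4 by 2.38 (SE 0.12). In all, 5 of 10 were higher and 2 lower, where 24.1% and 18.9% of all genes were called. In endothelial-like nuclei, 7 of 16 further synthesis genes were higher and 3 lower, where 22.4% and 14.8% of all genes were called. Pxylp1, the phosphatase that releases the linker for extension, was higher by 2.64 (SE 0.13), and Slc35b3, a PAPS transporter of the Golgi, by 1.89 (SE 0.07). Hs3st4, a 3-O-sulfotransferase gene, was higher by 3.96 (SE 0.25). Srgn, the core protein serglycin, was higher by 3.73 (SE 0.18).

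Genes of chain breakdown were counted in the fit without erythroid-like nuclei. Of 16, 10 were higher and 1 lower in mesothelial-like nuclei, where 30.4% and 25.9% of all genes were called. Cemip, a hyaluronan-binding protein needed for hyaluronan breakdown, was higher by 3.26 (SE 0.18) and Arsb, a lysosomal 4-sulfatase, by 2.14 (SE 0.13). Macrophage-like nuclei had 7 of 16 higher and 0 lower, where 15.2% of all genes were higher, and endothelial-like nuclei had 4 higher and 2 lower, where 22.4% and 14.8% were called. With all 10 classes, 6 were higher and 0 lower in each of these 2 classes. The lysosomal enzyme genes Hgsnat (2.00, SE 0.16) and Gusb (1.68, SE 0.16) were among them. Valve interstitial-like nuclei had 2 of 16 higher and 2 lower, where 19.2% and 15.3% of all genes were called. Other classes had more lower than higher. The counts were 1 higher and 8 lower in smooth muscle-like nuclei, where 24.1% and 18.9% of all genes were called, and 1 and 9 in cardiomyocyte-like nuclei (31.8% and 28.2%). Fibroblast-like nuclei had 1 and 4 (18.2% and 12.3%), and pericyte-like nuclei 0 and 3 (7.39% and 3.47%).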

How the data were processed

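Per the labels, nuclei were isolated from frozen tissue and libraries made with the 10x Genomics multiome kit. The deposited values are raw UMI counts per gene and nucleus that the authors made with Cell Ranger, version 7.1.0 per the file headers, on GRCm39 per the submitters' processing notes, which also name version 7.0.1; the annotation is not given in the sources used here. The 40 genes, the gene lists and the comparisons were chosen with earlier results of these data known. Nuclei with at least 1000 UMIs and at most 5% mitochondrial UMIs were kept. Scrublet's automatic threshold marked 0, 0 and 1 nuclei, so the highest scores were marked at 0.8% per 1000 deposited nuclei (895, 283 and 170). Clustering (scanpy 1.11.5, leidenalg 0.10.2) used 2000 variable genes, 30 components, 15 neighbours and resolution 1, with all 105 listed genes left out. A cluster took the class with the largest share of its markers detected in at least 10% of nuclei and at least 2-fold higher, with at least 3 markers. It stayed unnamed when 2 or more markers of another class, and more than its own, were among its 10 leading genes; this last condition was loosened after the clusters had been seen, and the stricter form is an alternative. A cluster of 352 nuclei with a median of 12293.5 UMIs and one of 26 stayed unnamed. Mylk4, Kcnab1 and Col19a1 led the larger one, and Mylk4 and Col19a1 also lead a smooth muscle-like cluster. Its nuclei are in none of the class levels or tests. In pool 3, unnamed nuclei held 5184736 UMIs and smooth muscle-like nuclei 2418945.

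Counts were summed per pool and class (30 sums, 10 classes) and tested with edgeR 4.0.16 (TMM, filterByExpr, quasi-likelihood), with the pool as a block, since one library holds every class of a pool, and Benjamini-Hochberg adjustment over all genes at 0.05. Clusters come from the same nuclei as the tests, and genes correlated with the members may have shaped them. Every member may be named, whether or not it passed; of each companion list, the 4 smallest adjusted p-values of a comparison. Scripts were tested on simulated data. The summed counts of the pools differed by more than counting noise (chi-square per degree of freedom 17.0 to 30.1), so none was a repeat deposit of another; whether the pools are independent litters is not given. Intervals and limits from counts cover counting error only. Alternatives were RLE size factors, DESeq2 1.42.0, no filter on low counts, no block, each pool left out, doublets kept, 10% mitochondrial UMIs, 500 UMIs, resolutions 0.5 and 2, the 5 largest classes, stricter names and no erythroid-like class; the last 2 were chosen after seeing the data.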

Additional observations from a re-analysis of the deposited data

How the results depend on the processing

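Over all alternatives, 5868 values of single members kept their direction and their side of the threshold, 213 lost the call, 204 gained it and 29 changed sign. Counts of called members stayed within 1.5 times for valve interstitial-like, endothelial-like, smooth muscle-like and fibroblast-like nuclei against the mean of other classes, for both contrasts of valve interstitial-like with another class and for the test over any classes. Cardiomyocyte-like nuclei went from 15 called members to 27 with DESeq2, 34 with the 5 largest classes and 27 without the erythroid-like class. Pericyte-like nuclei went from 6 to 3 with doublets kept and 12 at resolution 2. The valve interstitial-like clusters went from 8 to 5 with DESeq2 and 4 without the replicate block, and the Wnt9b cluster from 10 to 6 with DESeq2. With a pool left out, counts ranged from 15 to 23 in mesothelial-like, 2 to 7 in macrophage-like and 3 to 5 in pericyte-like nuclei, and from 5 to 12 in the Wnt9b cluster. The split of higher and lower calls moved with the 5 largest classes to 17 and 4 in valve interstitial-like, 13 and 14 in endothelial-like, 13 and 8 in smooth muscle-like, 5 and 29 in cardiomyocyte-like, and 19 and 5 in fibroblast-like nuclei. Mesothelial-like nuclei, set against the mean of those 5 classes, had 15 and 14. DESeq2 gave 9 and 7 in endothelial-like, 12 and 5 in smooth muscle-like, 1 and 26 in cardiomyocyte-like and 19 and 4 in fibroblast-like nuclei. Against fibroblast-like nuclei, valve interstitial-like nuclei had 5 higher and 6 lower at 500 UMIs and 6 of each at 10% mitochondrial UMIs. Apart from the fit without erythroid-like nuclei, the share of all genes called is not given for these alternatives, here or above. The counts therefore do not compare members with all genes. In cardiomyocyte-like nuclei, the share of all genes called lower went from 15.2% to 28.2% without the erythroid-like class.

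The pools pair the sums, since every class of a pool comes from the same library, and the replicate block is part of the main fits. Without the block, no count other than that of the valve interstitial-like clusters moved by over 1.5 times. Other resolutions were not run for the 2 comparisons between clusters, nor were the 5 largest classes alone run for the contrasts of 2 classes and the test over any classes.

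Sign changes against the mean of other classes, with the cause not tested, were as follows. With 1 pool left out, Extl3 ranged from -0.65 to 0.59 in endothelial-like, -1.10 to 0.13 in smooth muscle-like, -0.79 to 0.47 in fibroblast-like and -1.07 to 0.30 in mesothelial-like nuclei, above 0 without pool 3. Chsy3 ranged from -1.05 to 0.049 and Chst11 from -0.57 to 0.29 in cardiomyocyte-like nuclei, and Chst11 from -1.65 to 0.050 in macrophage-like nuclei, above 0 without pool 1. These fits include the erythroid-like class, with means of 20.6, 9.8 and 6.5 CPM for Extl3, Chsy3 and Chst11. All erythroid-like UMIs of Extl3 came from pool 3, and those of Chsy3 and Chst11 from pool 1. Without that pool the gene has no UMI in the class and no finite log2 level there. The part of this in the sign changes was not tested. With the 5 largest classes, Xylt1 went to -1.10 and Chsy1 to -0.078 in endothelial-like, Chsy1 to -0.36 and Glce to -0.44 in smooth muscle-like, and Chsy1 to -0.53, Chpf to -0.91, Papss1 to -1.03 and Ndst2 to -0.36 in cardiomyocyte-like nuclei. Without the erythroid-like class, Xylt1 went to -0.54 in endothelial-like nuclei, and Chpf to -0.80, Papss1 to -1.004 and Ndst2 to -0.42 in cardiomyocyte-like nuclei, where DESeq2 gave -0.99, -0.94 and -0.49. Sulf2 went to -0.16 in smooth muscle-like and 0.71 in pericyte-like nuclei at resolution 2, and Chst3 to 1.25 in macrophage-like nuclei at 10% mitochondrial UMIs. Between the valve interstitial-like clusters, Sulf1 went to -0.47 with doublets kept, and Chst15 to -0.62, Papss2 to 0.063 and Hs6st2 to -0.10 at 500 UMIs. Both settings were clustered anew, and their valve interstitial-like clusters were not matched to the pair named above. Depth limits members of few UMIs, such as Ndst4, Hs3st3b1 and B3galt6, and the pericyte-like and lymphatic endothelial-like classes.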
